A study of Rattus norvegicus with 12 samples.

Results

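The BCL2 family regulators of mitochondrial cell death were followed in cultured ventricular cardiomyocytes of newborn Wistar rats that received different forms of the transcription factor MEF2C. The members were 10 genes chosen by name: the survival genes Bcl2, Bcl2l1 and Mcl1, the pore-forming effectors Bax and Bak1, the BH3-only genes Bid, Bcl2l11, Bbc3 and Pmaip1, and the related mitochondrial gene Bnip3. All 10 were on the array and above the filter on dim probe sets, among 10025 genes tested. Each gene was read from 1 probe set, a group of array probes for that gene, taking the one with the highest mean over the 12 arrays where there were several. Values are log2 intensities, so a difference of 1 is a 2-fold change.

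The γ+ group received adenovirus for mef2Cγ+, the γ- group adenovirus for mef2Cγ-, and the 23/24 group adenovirus for mef2Cγ+23/24, while the control cultures received no virus. All 4 groups had 3 arrays each and shared the Wistar strain, 44 h of plating in serum and 24 h without serum. Splicing can keep or skip the γ segment of MEF2C, a stretch known for repressing transcription, and the sources used here do not define 23/24. A virus without an insert was not among the groups, so any effect of adenovirus itself cannot be told apart from that of a MEF2C form in a comparison with control. Neither the virus dose nor the time of infection is given in the labels. The arrays of a group are numbered as biological replicates, with nothing on separate cell isolations, so the p-values measure only the spread between these samples.

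In healthy heart muscle, BCL2, BCL-XL (from Bcl2l1) and MCL1 sit on the mitochondrial outer membrane and hold BAX and BAK in check. BH3-only proteins such as BIM (from Bcl2l11), PUMA (from Bbc3), NOXA (from Pmaip1) and truncated BID bind the survival proteins or activate BAX and BAK, which then form pores and let cytochrome c escape. Cytochrome c joins APAF1 to activate caspase 9. BNIP3 is induced by low oxygen and in cardiomyocytes is known for mitochondrial damage and mitophagy. Much of this control acts on proteins (cleavage of BID, rapid turnover of MCL1, movement of BAX), which an RNA array does not measure.

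Members whose genes moved in opposite directions are shown here with the 250 bases before their annotated start, from RefSeq on the GRCr8 build, written 5′ to 3′ on the strand of the gene. Bcl2 fell the most, Bcl2l11 rose, and Bnip3 fell in the γ+ cultures. Their positions are chr13:23366901-23367150 on the minus strand, chr3:135819792-135820041 on the plus strand and chr1:203154963-203155212 on the minus strand. Capitals mark matches on either strand to the hypoxia response core (ACGTG, together with its variant GCGTG) and to the FOXO motif (GTAAACA). In Bcl2l11 the run of capitals that starts with GTAAACA joins the FOXO match to a core that overlaps it, and in Bnip3 the CACGTG holds the core on both strands.
Bcl2: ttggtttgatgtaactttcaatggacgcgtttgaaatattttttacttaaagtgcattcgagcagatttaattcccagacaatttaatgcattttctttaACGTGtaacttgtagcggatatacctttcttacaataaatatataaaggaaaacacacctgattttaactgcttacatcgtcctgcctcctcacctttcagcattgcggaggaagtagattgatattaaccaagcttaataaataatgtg
Bcl2l11: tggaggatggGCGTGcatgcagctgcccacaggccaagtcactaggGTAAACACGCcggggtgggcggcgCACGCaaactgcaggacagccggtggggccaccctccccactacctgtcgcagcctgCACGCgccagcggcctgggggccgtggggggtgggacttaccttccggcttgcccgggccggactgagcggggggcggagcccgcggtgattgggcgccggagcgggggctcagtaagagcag
Bnip3: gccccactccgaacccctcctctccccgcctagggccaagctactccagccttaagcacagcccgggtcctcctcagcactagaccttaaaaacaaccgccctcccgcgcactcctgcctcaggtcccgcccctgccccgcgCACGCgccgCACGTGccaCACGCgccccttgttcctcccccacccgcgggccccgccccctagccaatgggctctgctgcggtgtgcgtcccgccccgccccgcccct

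The 3 promoters differed in base composition, with 33.6% GC in Bcl2, 72% in Bcl2l11 and 72.4% in Bnip3. Bcl2 held the hypoxia core at 1 place, 150 to 146 bases before the start. Bcl2l11 held it at 4 places and the FOXO motif at 1, 204 to 198 bases before the start. Bnip3 held the core at 3 places, with CACGTG at 99 to 94 bases before the start. A promoter entry was matched for 8 of the 10 members, 11 promoters in all, 4 of them of Bcl2l1. Bax and Bbc3 are named only. The MEF2 consensus matched in 0 of the 11, against 2.96% of 33469 rat promoters over the same length. The hypoxia core is common, with a match in 36.7% of rat promoters, while FOXO matched in 3.21% of them. Not every member held the core: the promoters of Mcl1, Bak1, Bid and Pmaip1 had no match. Some of the Bcl2l1 promoters held it and others did not. FOXO matched in Bcl2l11 alone among the members. An E2F motif (spelled TTCCCGC, with variants TTGGCGC and also TTCGCGC) matched in 1 promoter of Bcl2l1 and in 6.04% of all. These matches describe letters in a window and are not evidence of binding.

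Before the member values, 3 facts about the arrays bear on every comparison. Pairs of arrays held some identical values in 21 of 21 pairs inside the pooled 23/24 and control arrays, inside γ+ or inside γ-, and in 0 of 45 pairs across these sets, so normalization seems to have been run 3 times, once for each set. Only 23/24 against control lies within a run, and the run cannot be told apart from the group in the other 5 comparisons. Replicate 2 of γ+ stood apart from its partners: the SD of the difference between γ+ arrays over the tested genes was 0.12 for the closest pair and 0.24 for the farthest, against 0.13 to 0.14 in γ-, 0.12 to 0.16 in 23/24 and 0.13 to 0.16 in control. The γ+ member changes against control are therefore also given without it. With no probe set of the symbol Mef2c, the level of the transgenes was not analysed here.

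The first question was how the family changed in γ+ cultures. The survival genes Bcl2, Mcl1 and Bcl2l1 were lower than in control, the effector Bax was about 2-fold higher, and Bak1 did not pass the test. The 4 BH3-only genes Bid, Bcl2l11, Bbc3 and Pmaip1 were higher, and Bnip3 was lower. In all, 9 of the 10 members passed limma's test at an adjusted p under 0.05, 5 higher and 4 lower, where 64.9% of all 10025 genes passed (26.2% higher and 38.7% lower). The γ+ and control arrays did not overlap for the same 9 members, and did not overlap for 66.6% of all genes. With such a background the number of members that passed is not a result about the family. The median size of the change, whatever its sign, was 0.50 over the members and 0.30 over all genes.

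**Figure D1:**
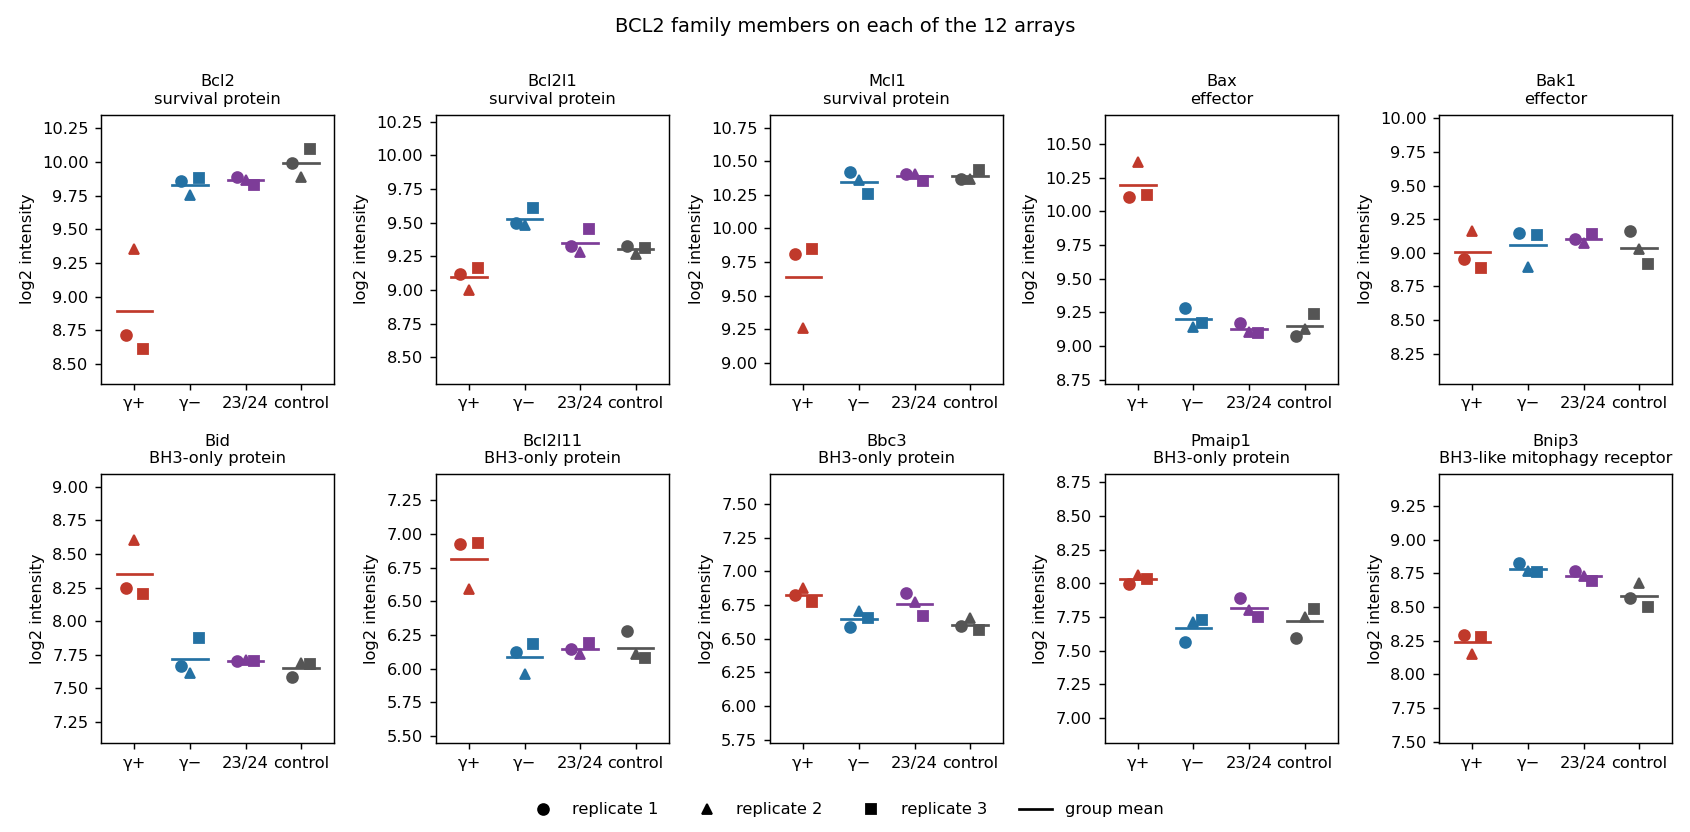
Log2 intensity of the 10 family members on each of the 12 arrays, with groups in the order γ+, γ-, 23/24 and control, 1 point for each array and a line at the group mean. Every panel spans 2 log2 units. The γ+ points of Bax, Bid and Bcl2l11 lie above all others and those of Bcl2, Mcl1 and Bnip3 below all others, while Bak1 overlaps throughout.

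Bcl2, the founding survival gene of the family, had log2 levels of 8.72, 9.36 and 8.61 in γ+ cultures, 9.86, 9.75 and 9.88 in γ- cultures, 9.89, 9.87 and 9.83 in 23/24 cultures, and 9.99, 9.89 and 10.10 in control cultures. All 3 γ+ arrays lay below the 9 others, and replicate 2 lay nearer to them than replicates 1 and 3. The mean was 8.89 ± 0.40 in γ+ against 9.99 ± 0.10 in control (SD, n = 3 each), a log2 change of -1.10 ± 0.13 (SE), or 2.14-fold lower (adjusted p = 1.53e-06 by limma). Among all tested genes, 489 fell by more. Without γ+ replicate 2 the change was -1.33.

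Mcl1, a short-lived survival protein that the heart needs in adult mice, had levels of 9.81, 9.26 and 9.84 in γ+ cultures, 10.42, 10.36 and 10.25 in γ- cultures, 10.41, 10.40 and 10.36 in 23/24 cultures, and 10.37, 10.37 and 10.44 in control cultures on the probe set used. The γ+ arrays were again the lowest 3, but here replicate 2 lay farthest from the rest. The change against control was -0.76 ± 0.11 (SE), or 1.69-fold lower (adjusted p = 1.33e-05 by limma), and it was -0.56 without γ+ replicate 2. Bcl2l1, which encodes BCL-XL, had levels of 9.12, 9.0 and 9.16 in γ+ cultures, 9.5, 9.48 and 9.61 in γ- cultures, 9.33, 9.28 and 9.45 in 23/24 cultures, and 9.33, 9.27 and 9.32 in control cultures. Its γ+ arrays were the lowest and its γ- arrays the highest. The γ+ change of -0.21 ± 0.06 (SE) against control was small beside that of Bcl2 (adjusted p = 0.00629 by limma), and -0.16 without γ+ replicate 2. It was -0.12 with an adjusted p of 0.167 once each array was centred on its median.

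Bax, the effector that moves to mitochondria and forms pores, had levels of 10.11, 10.36 and 10.12 in γ+ cultures, 9.28, 9.14 and 9.17 in γ- cultures, 9.17, 9.11 and 9.09 in 23/24 cultures, and 9.07, 9.12 and 9.24 in control cultures. The γ+ arrays stood clear of all others by more than the whole spread of the 9. The mean was 10.20 ± 0.15 in γ+ against 9.15 ± 0.08 in control (SD, n = 3 each), a log2 change of 1.05 ± 0.07 (SE), or 2.07-fold higher (adjusted p = 1.54e-09 by limma). Among all tested genes, 274 rose by more, and the change was 0.97 without γ+ replicate 2. Bak1, the other effector, resident on the mitochondrial membrane, had levels of 8.96, 9.16 and 8.89 in γ+ cultures, 9.15, 8.89 and 9.13 in γ- cultures, 9.10, 9.07 and 9.14 in 23/24 cultures, and 9.16, 9.03 and 8.91 in control cultures. These overlapped in every pair of groups. Its γ+ change was -0.03, or -0.11 without γ+ replicate 2, with a 95% interval of -0.21 to 0.14 over all arrays (adjusted p = 0.754 by limma), so a change as large as that of Bax lies outside the interval.

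Within an array, the log2 level of Bax minus that of Bcl2, set to 0 at the control mean, was 2.24, 1.86 and 2.36 in γ+ cultures. The same difference was 0.27, 0.24 and 0.14 in γ- cultures, 0.13, 0.09 and 0.11 in 23/24 cultures, and -0.07, 0.08 and -0.01 in control cultures. Any offset common to an array drops out of this difference, and the γ+ arrays, with a mean of 2.15 ± 0.26 (SD, n = 3), stood far above all others. The pair joins the members with the largest rise and the largest fall in γ+, so a wide gap follows from the choice. The γ+ mean was 1.80 ± 0.47 for Bax minus Mcl1 and 1.26 ± 0.23 for Bax minus Bcl2l1 (SD, n = 3 each). Such a difference is a description, and it says that the genes changed unequally and not by how much each changed.

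Among the BH3-only genes, Bid and Bcl2l11 showed the larger differences. Bid, whose protein is cut by caspase 8 and so links death receptors to mitochondria, had levels of 8.24, 8.60 and 8.20 in γ+ cultures, 7.67, 7.62 and 7.88 in γ- cultures, 7.71, 7.71 and 7.70 in 23/24 cultures, and 7.58, 7.69 and 7.68 in control cultures. The γ+ arrays were the 3 highest and the other groups overlapped or lay close together. The γ+ change was 0.70 ± 0.09 (SE), or 1.62-fold higher than control (adjusted p = 5.93e-06 by limma), and 0.57 without γ+ replicate 2. Bcl2l11, whose protein BIM binds all of the survival proteins, had levels of 6.93, 6.59 and 6.93 in γ+ cultures, 6.12, 5.96 and 6.18 in γ- cultures, 6.15, 6.11 and 6.19 in 23/24 cultures, and 6.28, 6.11 and 6.08 in control cultures. All γ+ arrays exceeded all others, with replicate 2 the lowest of the 3. The change was 0.66 ± 0.10 (SE), or 1.58-fold higher (adjusted p = 1.57e-05 by limma), and 0.77 without that array.

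Pmaip1 encodes NOXA, a partner of MCL1, and had levels of 7.99, 8.06 and 8.03 in γ+ cultures, 7.56, 7.71 and 7.72 in γ- cultures, 7.89, 7.80 and 7.75 in 23/24 cultures, and 7.59, 7.75 and 7.81 in control cultures. The γ+ arrays were the 3 highest by a narrow margin over 23/24. The change against control was 0.31 ± 0.07 (SE; adjusted p = 9.46e-04 by limma). Bbc3, which encodes PUMA, a BH3-only protein known as a target of p53, had levels of 6.82, 6.88 and 6.77 in γ+ cultures, 6.59, 6.70 and 6.65 in γ- cultures, 6.84, 6.77 and 6.67 in 23/24 cultures, and 6.60, 6.65 and 6.57 in control cultures. Its γ+ arrays lay above all control arrays and overlapped the 23/24 arrays. The change against control, 0.22 ± 0.07 (SE), was the smallest of the 4 BH3-only genes (adjusted p = 0.0103 by limma). Without γ+ replicate 2 these changes were 0.29 for Pmaip1 and 0.19 for Bbc3, and both still passed.

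Bnip3 went the other way from the BH3-only genes, with levels of 8.30, 8.15 and 8.28 in γ+ cultures, 8.82, 8.77 and 8.76 in γ- cultures, 8.77, 8.73 and 8.69 in 23/24 cultures, and 8.57, 8.68 and 8.50 in control cultures. The γ+ arrays were the 3 lowest, control lay between, and the γ- and 23/24 arrays were all above control. The γ+ change against control was -0.34 ± 0.06 (SE; adjusted p = 1.31e-04 by limma), and -0.30 without γ+ replicate 2.

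**Figure D2:**
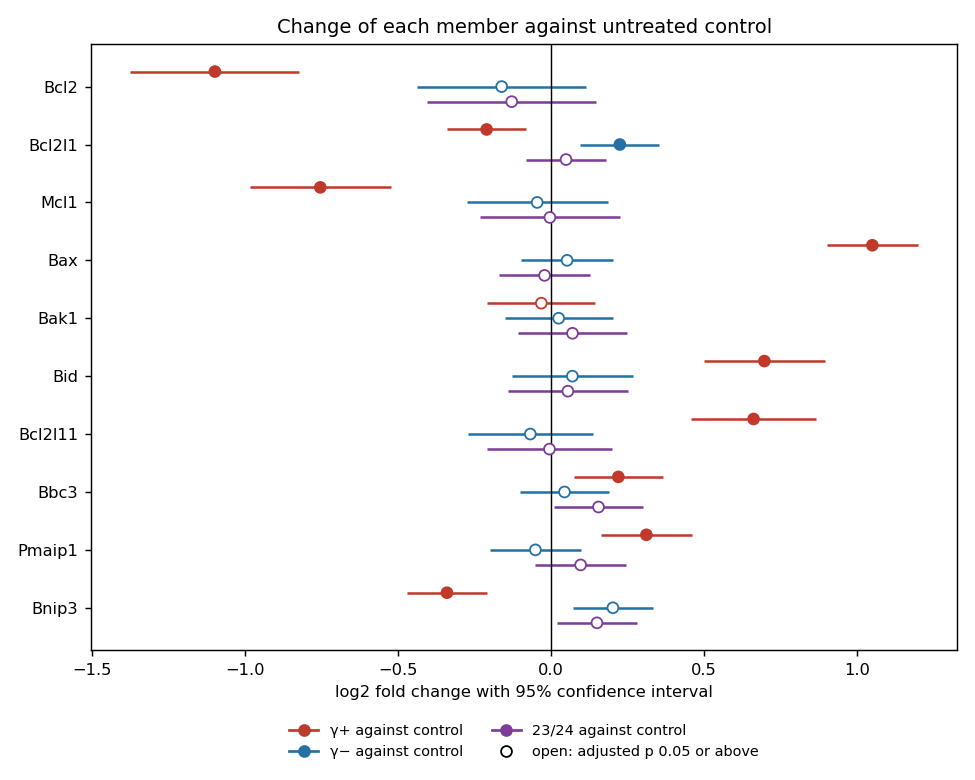
Log2 change against control of each member in the γ+, γ- and 23/24 groups, with 95% intervals from limma; filled points passed at an adjusted p under 0.05 and open points did not. In γ+ 9 of the 10 members passed, 5 to the right and 4 to the left, while in γ- Bcl2l1 alone passed and in 23/24 no member did.

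Of the members, 4 had a second probe set above the filter, tested among 17295 probe sets. For Bax the second set gave the same picture, with levels of 9.06, 9.44 and 9.15 in γ+ cultures, 7.94, 8.12 and 8.16 in γ- cultures, 8.13, 8.10 and 8.05 in 23/24 cultures, and 8.03, 8.05 and 8.05 in control cultures. Its γ+ arrays stood above all others, and the change against control was 1.17 ± 0.09 (SE; adjusted p = 6.77e-08 by limma). For Mcl1 it did not, with levels of 6.22, 6.51 and 6.34 in γ+ cultures, 6.10, 6.13 and 5.94 in γ- cultures, 6.45, 6.46 and 6.49 in 23/24 cultures, and 6.43, 6.39 and 6.58 in control cultures. Here γ- was the lowest group and γ+ overlapped control. The second Mcl1 set gave -0.11 in γ+ against control (adjusted p = 0.316 by limma) and 0.30 in γ+ against γ- (adjusted p = 0.0107), the opposite direction of the set used. Its γ- arrays were lower than control by -0.41 (adjusted p = 0.0219). For Bcl2l1 the second set gave 0.08 in γ+ against control (adjusted p = 0.401) and for Bnip3 -0.03 (adjusted p = 0.869). The falls of Mcl1, Bcl2l1 and Bnip3 therefore rest on 1 probe set each, and which part of a transcript each set reads was not analysed here. For Bcl2l1, the probe annotation lists RefSeq transcripts for the second set and none for the set used. Bcl2, Bak1, Bid, Bcl2l11, Bbc3 and Pmaip1 had no second set above the filter.

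**Figure D3:**
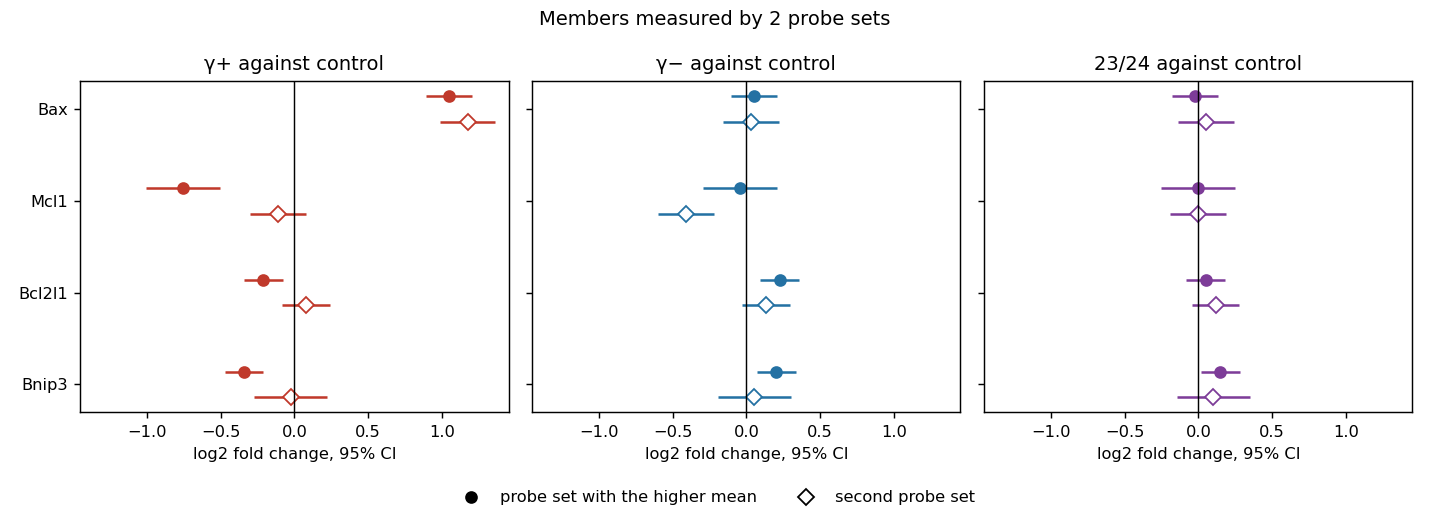
Log2 change against the control mean of the same probe set in the γ+, γ- and 23/24 groups, for the 4 members with a second probe set. The set used and the second set are both shown. Both Bax sets lie about 1 unit above control in γ+. The second sets of Mcl1, Bcl2l1 and Bnip3 lie near control there, at changes of -0.11, 0.08 and -0.03.

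The next comparison asked how cultures given the form without the γ segment differed from untreated ones. Bcl2l1 was the only member to pass, higher in γ- by 0.22 ± 0.06 (SE; adjusted p = 0.0382 by limma), which is 1 of 10 members where 6.94% of all genes passed (3.06% higher and 3.88% lower). This call was lost when the arrays were centred on their medians (adjusted p = 0.0797), without any 1 of the γ- or control arrays (0.0748 to 0.155) and without 23/24 replicate 2 (0.0502). The second Bcl2l1 set gave 0.13 (adjusted p = 0.344). The γ- and control arrays did not overlap for 3 members, and for 33.4% of all genes: Bcl2l1 and Bnip3 were higher and Bcl2 lower. Bnip3 had a change of 0.20 (adjusted p = 0.0579) and Bcl2 one of -0.16 (adjusted p = 0.506). Both passed when γ+ replicate 2, which adds to the common spread, was left out, with adjusted p of 0.011 for Bnip3 and 0.037 for Bcl2. The other 7 members had changes of -0.07 to 0.07, and the 95% intervals of all 10 lay between -0.44 and 0.35. This range covers the probe sets used, and a change as large as that of Bax, Bcl2, Mcl1, Bid or Bcl2l11 in γ+ lies outside it. The second Mcl1 set gave -0.41 in γ- against control, with a 95% interval of -0.60 to -0.22 (adjusted p = 0.0219 by limma).

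The third comparison with control asked how cultures given the 23/24 form differed from untreated ones. None of the 10 members passed, where 0% of all genes passed by limma. At an unadjusted p under 0.05 there were 2 members and 899 of the 10025 genes. Changes ran between -0.13 for Bcl2 and 0.15 for Bbc3, and the 95% intervals lay between -0.41 and 0.30. Arrays of the 2 groups did not overlap for Bid, Bbc3 and Bnip3, each higher in 23/24, and for 17.9% of all genes. Bid had the tightest 23/24 values of the 10 members, with a mean of 7.71 ± 0.005 against 7.65 ± 0.06 in control (SD, n = 3 each).

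Setting the virus-treated groups against each other removes the untreated cultures from the contrast, though γ+ still shares its arrays with the comparison above. In γ+ against γ- cultures, 9 of 10 members passed, 5 higher and 4 lower, where 64.2% of all genes passed (26.7% higher and 37.5% lower). The arrays did not overlap for 9 members and for 67.1% of all genes. Bax was higher by 0.998 ± 0.07 (SE; adjusted p = 3.08e-09 by limma) and Bcl2 lower, at -0.94 ± 0.13 (SE; adjusted p = 9.47e-06). Bcl2l11 at 0.73, Bid at 0.63, Pmaip1 at 0.36 and Bbc3 at 0.18 were higher, while Mcl1 at -0.71, Bnip3 at -0.54 and Bcl2l1 at -0.44 were lower. On the probe sets used, Bnip3 and Bcl2l1 differed more here than against control, and both had higher means in γ- than in control. Their second sets gave -0.08 for Bnip3 (adjusted p = 0.59 by limma) and -0.05 for Bcl2l1 (adjusted p = 0.579) in γ+ against γ-. Bbc3 missed the threshold without γ+ replicate 1 or 2 or γ- replicate 1 or 3 (adjusted p of 0.0649 to 0.118). Bak1 again gave a value near 0, at -0.06 (adjusted p = 0.574).

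In γ+ against 23/24 cultures, 8 of 10 members passed, 4 in each direction, where 65.8% of all genes passed (28% higher and 37.9% lower). The arrays did not overlap for 8 members and for 67.4% of all genes. Bax was higher by 1.07 ± 0.07 (SE; adjusted p = 1.22e-09 by limma), Bcl2l11 by 0.67, Bid by 0.64 and Pmaip1 by 0.21. Bcl2, at -0.97 ± 0.13 (SE; adjusted p = 6.46e-06), Mcl1 at -0.75, Bnip3 at -0.49 and Bcl2l1 at -0.26 were lower. The second sets of Mcl1, Bnip3 and Bcl2l1 gave -0.11, -0.13 and -0.04 in γ+ against 23/24, none of them called. Bbc3 had a difference of 0.06 (adjusted p = 0.417) with a 95% interval of -0.08 to 0.21. With each array centred on its median, Bbc3 passed at 0.20 (adjusted p = 0.0243) and Bcl2l1 did not. Pmaip1 missed the threshold without 23/24 replicate 3 (adjusted p = 0.0548). Bak1 was at -0.10 (adjusted p = 0.293), and at -0.18 it passed without γ+ replicate 2 (adjusted p = 0.0369).

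Between γ- and 23/24 cultures 0 of 10 members passed, where 8.1% of all genes passed (4.16% higher and 3.94% lower). The arrays of Bcl2l1 did not overlap, with γ- higher by 0.18 (adjusted p = 0.086 by limma), nor did those of Pmaip1, with γ- lower at -0.15 (adjusted p = 0.203), and 36.2% of all genes did not overlap either. The second Mcl1 set was lower in γ-, at -0.41 (adjusted p = 0.0176). Bcl2l1 passed with these 6 arrays fitted alone (adjusted p = 0.0299) and without γ+ replicate 2 (adjusted p = 0.0182). On the probe sets used for the genes, the 95% intervals of the 10 members lay between -0.31 and 0.31.

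The markers of the cells in the dish moved along with the γ+ changes. Over all genes, 38.7% were lower in γ+ than in control. Cardiomyocyte markers were lower in γ+ for 8 of 8 genes, with a log2 summed level of 14.18 to 14.19 in γ+ against 15.27 to 15.29 in control. Fibroblast markers were lower for 7 of 7 (11.58 to 11.69 in γ+ against 13.11 to 13.15 in control), smooth muscle markers for 4 of 4 (13.37 to 13.44 in γ+ against 14.07 to 14.10 in control) and endothelial markers for 5 of 5 (8.03 to 8.15 in γ+ against 8.88 to 8.94 in control). Of 5 macrophage or leukocyte markers, Ptprc was below the filter and 3 of the other 4 were lower, or 2 with the arrays centred (8.54 to 8.67 in γ+ against 9.18 to 9.20 in control). Fewer cells of a type and less RNA per cell cannot be told apart in such cultures, and the part of these shifts in the member changes was not tested. In γ- against control, Myh6 of the cardiomyocyte list was higher, at 0.19 (adjusted p = 0.0427 by limma), and 4 markers of other cells were lower: Col3a1 at -0.29 (0.0456), Tie1 at -0.30 (0.0321), Tek at -0.34 (0.0305) and Laptm5 at -0.46 (0.00418). Over all genes, 3.06% were higher and 3.88% lower in γ- than in control. With the arrays centred 1 macrophage or leukocyte marker passed, and 0 of the cardiomyocyte, fibroblast, smooth muscle and endothelial markers. Endothelial sums of 8.65 to 8.75 in γ- did not overlap those of 8.88 to 8.94 in control, nor did fibroblast sums of 13.03 to 13.04 in γ- and 13.11 to 13.15 in control. Their part in the γ- member values was not tested. In 23/24 against control 0 markers passed.

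Genes upstream and downstream of the family were read from lists, each gene standing in the same fit. The counts for γ+ against control are to be read against the 26.2% of all genes that were higher and the 38.7% that were lower. Of 15 other BCL2 relatives 10 were tested, with 2 higher and 5 lower in γ+ than in control, and a median of -0.10 beside -0.07 for all genes. With the arrays centred on their medians, or quantile normalized, the split was 3 higher and 3 lower. Bok, an effector-like relative of Bax, was lower at -0.98 ± 0.08 (SE; adjusted p = 1.87e-08 by limma), and the BH3-only gene Bik was higher by 0.78 ± 0.12 (SE; adjusted p = 3.63e-05). Bcl2l10, Hrk, Bcl2l14 and Bcl2l15 were below the filter, and Bcl2l2 was not analysed here.

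Downstream of the mitochondrial pore, 11 of 13 listed apoptosome, caspase and released mitochondrial genes were tested, with 5 higher and 4 lower in γ+ than in control and a median of 0.07. Apaf1, the scaffold of the apoptosome, was higher by 0.56 ± 0.08 (SE; adjusted p = 7.38e-06 by limma). Cycs, which encodes cytochrome c, was lower at -0.94 ± 0.06 (SE; adjusted p = 3.70e-10), so these partners moved in opposite directions. Of 7 listed inhibitors of apoptosis 4 were tested, 2 higher and 1 lower. Xiap, which blocks caspases, was lower at -0.45 (adjusted p = 4.21e-06), and Birc5, which encodes survivin and also serves in cell division, was higher by 1.004 (adjusted p = 1.78e-09).

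Upstream, 10 of 12 listed death receptor genes were tested, 4 higher and 2 lower in γ+ than in control, with a median of 0.11. The split was 5 and 1 with the arrays centred and 5 and 2 with quantile normalization. Fas was higher by 0.99 ± 0.10 (SE; adjusted p = 1.25e-07 by limma) and Tnfrsf10b, a TRAIL receptor, by 0.62 ± 0.08 (SE; adjusted p = 5.87e-06). Their ligands Faslg and Tnfsf10 were below the filter. Of 17 listed genes of the p53 pathway 14 were tested, with 9 higher and 2 lower and a median of 0.27. Cdkn1a, the p21 cell cycle inhibitor, was higher by 1.54 ± 0.07 (SE; adjusted p = 1.30e-11) and Tp53inp1 by 1.22 ± 0.06 (SE; adjusted p = 1.46e-11). Bax, Bbc3, Pmaip1, Fas and Apaf1 are known p53 targets as well.

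Bnip3 was read beside the genes that low oxygen induces and beside the mitophagy genes. Of 18 hypoxia-inducible genes, all tested, 12 were lower in γ+ than in control and 1 was higher, with a median of -0.34. The split was 9 lower and 1 higher with the arrays centred, and 9 and 2 with quantile normalization. Egln3, an oxygen sensor that marks HIF proteins for decay, was at -1.29 ± 0.05 (SE; adjusted p = 5.86e-12 by limma) and the transcription factor Bhlhe40 at -1.24 ± 0.07 (SE; adjusted p = 1.51e-10). Of 12 mitophagy and autophagy genes 11 were tested, with 5 lower, 0 higher and a median of -0.25. Under centring 3 were lower and 1 higher, and under quantile normalization 4 and 1. Pink1, the kinase that flags damaged mitochondria, was at -0.80 (adjusted p = 1.30e-08) and Map1lc3a, an LC3 gene, at -0.53 (adjusted p = 1.11e-04).

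Among 12 listed regulators of the members' transcription or protein turnover, 10 were tested, 3 higher and 5 lower in γ+ than in control, with a median of -0.17. With centring or quantile normalization 4 were higher and 4 lower. The transcription factors Myc, at -0.97 ± 0.06 (SE; adjusted p = 1.31e-09 by limma), and Jun, at -0.83 ± 0.06 (SE; adjusted p = 8.39e-09), were lower.

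**Figure D4:**
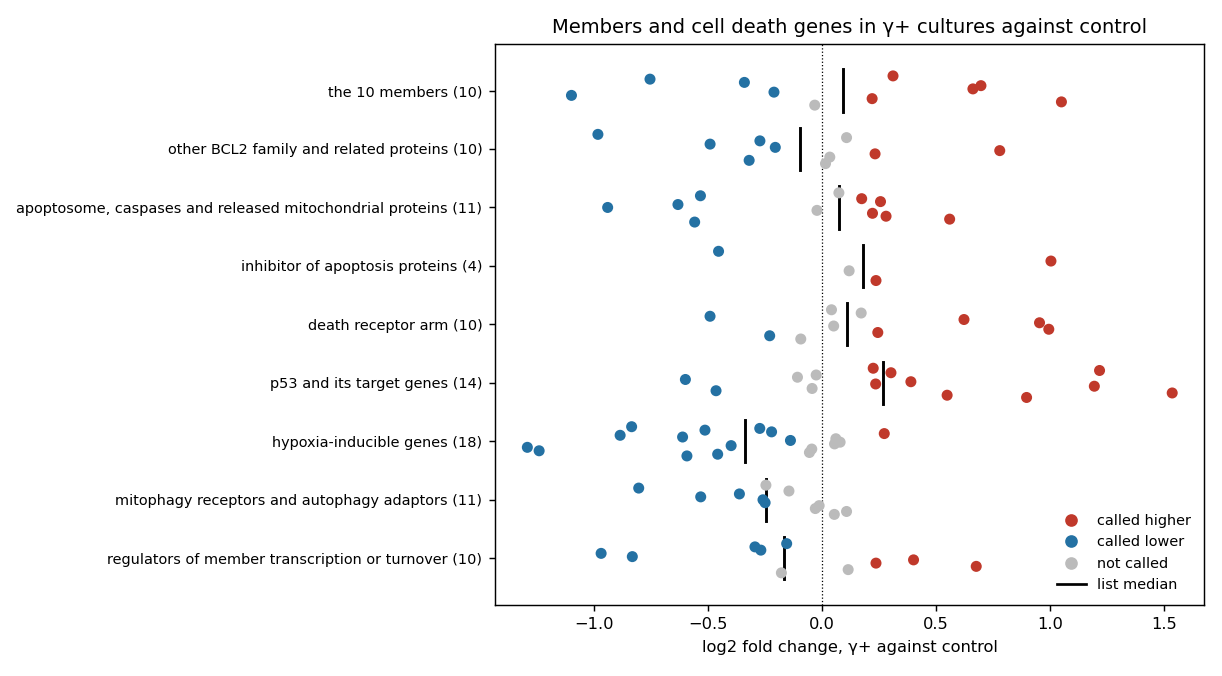
Log2 change of γ+ against control for the 10 members and the tested genes of 8 related lists, 1 point a gene, red where higher and blue where lower at an adjusted p under 0.05, grey where not called, with a black bar at the list median. The p53 list has 9 higher and 2 lower genes, and the hypoxia list 1 higher and 12 lower.

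In γ- against control, where 6.94% of all genes passed, 8 genes of these lists passed, 4 of them on the p53 list. Bnip1, a relative of Bnip3, was lower at -0.53 (adjusted p = 0.0184 by limma), while Bmf stood at -0.19 (adjusted p = 0.141). Cflar, which blocks caspase 8, was lower at -0.31 (adjusted p = 0.0044), while Tnfrsf1a stood at -0.13 (adjusted p = 0.256). The p53 list had 3 genes higher and 1 lower of 14, led by Cdkn1a at 0.53 (adjusted p = 8.22e-04) and by the kinase gene Plk2 at -0.29 (adjusted p = 0.00418). Egln3 was higher by 0.21 (adjusted p = 0.031), and this call was lost with the arrays centred, when 0 hypoxia genes passed, while Adm stood at -0.24 (adjusted p = 0.0781). Myc was lower at -0.35 (adjusted p = 0.00566), while E2f1 stood at -0.29 (adjusted p = 0.226). The apoptosome, inhibitor of apoptosis and mitophagy lists had 0 genes called in γ-, and all 8 lists had 0 called in 23/24 against control.

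In γ+ against γ-, and in γ+ against 23/24, the leading list genes kept the signs they had against control. Bok was at -0.87 against γ- and -1.02 against 23/24, and Bik at 0.66 in both. Apaf1 was higher by 0.56 and 0.67, and Cycs was at -0.97 in both. Xiap was at -0.33 and -0.44, and Birc5 was higher by 1.04 and 1.02. Each of these passed limma's test, the highest adjusted p being 1.97e-04, for Bik against γ-. They were named for the lowest adjusted p of their list in each comparison, so their passing is not a separate result. Of all genes, 64.2% passed against γ- and 65.8% against 23/24.

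The receptors and p53 targets did likewise. Fas was higher by 0.84 against γ- and 0.96 against 23/24, Tnfrsf10b by 0.57 and 0.72, Cdkn1a by 1.01 and 1.16, and Tp53inp1 by 1.25 and 1.04. Egln3 stood at -1.51 and -1.34, Bhlhe40 at -1.11 and -1.26, Pink1 at -0.90 and -0.77, Myc at -0.62 and -0.84, and Jun at -0.71 and -0.80. All passed limma's test, and all were named by the same rule. Map1lc3a was at -0.62 against γ- and Map1lc3b at -0.34 against 23/24 (adjusted p = 2.40e-05 and 0.0013). These comparisons share the γ+ arrays with each other and with γ+ against control.

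In γ- against 23/24, a few list genes passed where no member read from its brightest probe set did, and where 8.1% of all genes passed. Casp6, an executioner caspase, was lower at -0.28 (adjusted p = 0.0303 by limma), while Casp2 stood at 0.33 (adjusted p = 0.0697). Cflar was lower at -0.24 (adjusted p = 0.0134), while Casp8 stood at -0.29 (adjusted p = 0.165). Tigar, a p53 target in sugar metabolism, was higher by 0.51 (adjusted p = 0.00578) and Plk2 lower at -0.26 (adjusted p = 0.00786). The glucose transporter gene Slc2a1 was lower at -0.35 (adjusted p = 0.0362), while Egln3 stood at 0.17 (adjusted p = 0.0694). Myc was lower at -0.22 (adjusted p = 0.0466), while Trib3 stood at 0.16 (adjusted p = 0.214). With the arrays centred on their medians these 8 lists had 0 lower genes, so the lower calls of Casp6, Cflar, Plk2, Slc2a1 and Myc were all lost.

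Likeness over the 12 arrays was measured as the root mean square difference between 2 genes, each taken minus its control mean. The 3 tested genes most like Bax, the member with the largest rise in γ+, were Paxip1 (0.0788), Hirip3 (0.0823) and Foxm1 (0.0840), in log2 units. Their γ+ changes against control were 1.15, 0.96 and 0.99. The 3 most like Bcl2, the member with the largest fall, were Abcc9 (0.0827), Vamp5 (0.103) and Bmp4 (0.106), with γ+ changes of -1.15, -0.99 and -1.26.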

How the data were processed

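Total RNA of 12 samples was measured on Affymetrix rat arrays, 1 array per sample, 2 µg of RNA each, per the labels' protocols. The deposited table holds 1 value per probe set and array, taken as log2 intensity. The submitters' processing notes name MAS5. The sources used here do not state how background, summarization and normalization were done, nor the log base. Array medians ran from 5.33 to 5.53.

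Of 28826 probe sets, 15209 had 1 gene symbol, 306 several and 13311 none. 15178 were matched by Entrez identifier to RefSeq (GRCr8). Probe sets with a mean at or below the 40th percentile (4.78) were left out, and the brightest probe set stood for each gene.

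All 12 arrays were fitted with group means in limma 3.58.1 (R 4.3.3), with eBayes variances that follow the mean intensity and 8 residual degrees of freedom, and Benjamini-Hochberg adjustment over the 10025 genes of each of 6 comparisons. The procedure was tested on simulated data. The text names the members, the 2 genes of lowest adjusted p per list where any was called, and the 3 genes most like the top members. Members and lists were chosen with earlier results of these data known. Alternatives were array centring, quantile normalization, 2 other filters, probe set means, no trend, a replicate block, fits of the 6 compared arrays and leaving out each array. Second probe sets and the list counts under other scalings were added after seeing the data.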

Additional observations from a re-analysis of the deposited data

How the results depend on the processing

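The γ+ calls of Bcl2, Bax, Bid, Bcl2l11, Bbc3 and Pmaip1 against control held in all alternatives run. Over the 1224 alternative values of members, 27 lost their call with the sign kept and 11 gained one. Called values changed sign in 2, both with a second probe set chosen after seeing the data. Bcl2l1 in γ+ against control (0.078) was then not called (adjusted p = 0.401 by limma). Mcl1 in γ+ against γ- (0.30) was called in the opposite direction (adjusted p = 0.0107). Uncalled values changed sign in 35. In γ- against control 1 member was called, against 0 with median centring, 0 with the mean over probe sets, 0 without the intensity trend, 2 with quantile normalization, 2 without the filter, 2 with the 6 compared arrays alone, and 0 to 3 without an array. Genes called there numbered 696, against 436 with centring, 1363 without the filter, 425 with the 60th percentile filter, 1373 with 6 arrays, and 267 to 1665 without an array. In 23/24 against control 0 genes were called, 1 with quantile normalization, and 0 to 58 without an array, the 58 without γ+ replicate 2. In γ- against 23/24, 812 genes were called, against 1641 without the filter, 488 with the 60th percentile filter, 1760 with 6 arrays, and 263 to 1838 without an array. There 0 members were called, 1 with 6 arrays, and 0 to 1 without an array. Fewer genes or arrays enter some of these fits, and otherwise the cause was not tested.

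Centring moved the share of higher calls to 51.2% of calls in γ+ against control (40.4% as deposited), 58.5% in γ+ against 23/24 (42.5%) and 77.9% in γ- against 23/24 (51.4%). The replicate block left 9, 1 and 0 members called in γ+, γ- and 23/24 against control, and changed no call of a member in any comparison. With the block 6401, 514 and 0 genes were called. Deviations from the group means correlated at -0.22 to 0.12 over 18 pairs of same-numbered arrays (1 over 0.1). Other-numbered arrays correlated at -0.23 to 0.26 over 36 pairs (9 over 0.1). With means of only 3 arrays, these values cannot decide whether same-numbered samples came from a shared isolation. The 3 arrays of each group and probe sets near background limit the precision.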
